A study of Mus musculus with 16 samples.

Results

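Gene desert regions are stretches of open chromatin that lie outside every annotated gene and more than 100 kb from the start of any protein-coding transcript. They were found by merging the peaks of 16 ATAC-seq peak lists on chromosomes 1 to 19 wherever peaks shared at least 1 bp, and by keeping merged regions whose midpoint met both conditions on the mm10 build and that held a peak in at least 4 lists. Of 291316 merged regions, 125367 had a peak in at least 4 lists, and 8325 of these (6.64%) were gene desert regions, called members here. ATAC-seq cuts DNA with a transposase where chromatin is accessible, and was run on sorted bone marrow HSPCs, the stem and progenitor cells of the blood. Every mouse carried floxed Ep300 alleles, the gene of the acetyltransferase p300, and the mice, C57BL/6 of both sexes, were given repeated poly(I:C) injections as young adults to induce the deletion. WT mice (Ep300 fl/fl) had no Cre, P300KO mice carried Mx1-Cre, TET2KO mice were Ep300 fl/fl and Tet2-/- without Cre, and P300KO_TET2KO mice had Mx1-Cre and Tet2-/-. Mx1-Cre is induced by interferon in many cell types, so p300 loss need not be confined to HSPCs. Each genotype had 4 libraries, and each library pooled cells from a pair of age-matched mice.

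Most enhancers of a mammalian genome lie away from promoters, and some act over long distances by looping to a start site. Blood cells are known for such remote elements, for example those of Myc, whose enhancers lie far from the gene and work in different blood lineages. p300 is a coactivator that acetylates histones at enhancers, and Tet2 oxidizes methylated cytosine, a step in DNA demethylation. The factors whose short sequence strings are counted here have established roles in these cells. Spi1 drives myeloid and lymphoid fates, Gata factors act in stem, erythroid and megakaryocyte cells, Runx and Tal1 act in stem cells, Cebp factors act in myeloid cells, Ap1 responds to signals, and Ctcf shapes chromatin loops.

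Sequences at the summits of 6 members whose peaks differed between genotypes are shown first, because the text returns to them. Each is named by the nearest protein-coding gene, which is a label of position and not a target. Short strings were searched on both strands. The Spi1 string was AGGAAGT. For the Gata factors it was AGATAA, the core that these proteins read. The Runx string was TGTGGTT. For Ap1, the Fos and Jun dimer, it was TGANTCA. The Cebp string was TTGCNNAA. For Tal1, which binds an E-box, it was CAGATG. Ctcf was searched by its consensus, and no string contains another. Each line gives the mm10 reference, plus strand, 50 bp either side of the summit of the library in which the region ranked highest, and capitals mark string matches. The Rprm, Dnajb6 and Arid1b regions had peaks in all P300KO_TET2KO and no TET2KO libraries, the 4930535I16Rik and Fut8 regions had peaks in all TET2KO and no WT libraries, and the Gadd45g region was lost in P300KO_TET2KO against P300KO.
Rprm region, chr2:53680812-53680912: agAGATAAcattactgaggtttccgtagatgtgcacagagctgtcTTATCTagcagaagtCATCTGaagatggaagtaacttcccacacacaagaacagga
Dnajb6 region, chr5:29870719-29870819: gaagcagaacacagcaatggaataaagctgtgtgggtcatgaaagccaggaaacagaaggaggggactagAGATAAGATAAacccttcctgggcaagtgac
Arid1b region, chr17:4396261-4396361: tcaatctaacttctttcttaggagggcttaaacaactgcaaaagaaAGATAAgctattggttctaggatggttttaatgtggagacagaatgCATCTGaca
4930535I16Rik region, chr4:124079759-124079859: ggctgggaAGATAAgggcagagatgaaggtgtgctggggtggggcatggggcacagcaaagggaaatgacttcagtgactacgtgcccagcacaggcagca
Fut8 region, chr12:77100597-77100697: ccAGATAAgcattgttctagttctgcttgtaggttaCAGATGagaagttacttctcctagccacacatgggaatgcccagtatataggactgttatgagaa
Gadd45g region, chr13:52079777-52079877: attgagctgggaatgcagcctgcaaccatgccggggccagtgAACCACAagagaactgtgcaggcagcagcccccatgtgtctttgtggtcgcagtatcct

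The 6 windows differ in content. Each of them holds a string, so they do not stand for all members that differed. The same windows of many other gained or lost members hold none, among them those near Tmtc4, Nuak1, Ap3b1, Ryr2, Zwint and Ddx1. The Rprm window holds the Gata string at 2 places beside a Tal1 string, the Arid1b and Fut8 windows also hold both, and the Dnajb6 window holds overlapping Gata strings. A match is a description of letters, not a binding site.

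The libraries fell into 2 deposit sets, read from the labels: replicates 1 and 2 of each genotype name a merged peak file (set 1) and replicates 3 and 4 do not (set 2). Nothing states what differed between the sets. The lists hold no reads, so depth is unknown and list length stands in for it: 86039 to 110055 peaks in set 1 and 130610 to 137335 in set 2. Start sites of the HSPC markers Kit, Cd34, Flt3, Gata2, Meis1, Myb, Runx1 and Tal1 had a peak within 1 kb in 16 of 16 libraries. Of the markers of other cells, Ly6g and Alb had none, Cd79a and Cd3e had a peak in 4 libraries each, Hba-a1 in 7, Cd8a in 8 and the fibroblast gene Col1a1 in 16. In bulk cells a change in cell mix and a change within a cell cannot be told apart.

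Gene deserts were wide and sparsely open. Positions that meet the distance rule span 652 Mb, 27.2% of chromosomes 1 to 19, and held 12.8 members per Mb. Intergenic regions 3 to 100 kb from a coding start, called nearer regions here, numbered 31352 under the same rule of 4 lists and reached 58.2 per Mb. Regions in genes or within 3 kb of a coding start reached 71.1 per Mb. Members were seen in fewer lists: of the 26297 merged desert regions found in any list, 31.7% reached 4 lists, against 43.8% of nearer regions. A peak in all 16 lists was found for 1426 members (17.1%) and for 27.2% of nearer regions. The median member was seen in 10 lists and was 459 bp wide (quartiles 306 and 697 bp), and the median nearer region was seen in 13 lists and was 519 bp wide.

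Density fell with distance. The median member lay 187 kb from the nearest coding start (quartiles 133 and 296 kb), and the most remote lay 2140 kb away. Between 100 and 200 kb there were 4526 members at 25.3 per Mb, between 200 and 500 kb 3071 at 12.01 per Mb, between 500 and 1000 kb 629 at 4.25 per Mb, and beyond 1000 kb 99 at 1.43 per Mb. The share with a peak in all 16 lists was 19.2% in the nearest of these classes and 11.4% between 500 and 1000 kb. The 100 kb threshold marked no step: the 500 members just inside it and the 500 nearer regions just outside it both had a median of 11 lists, and the medians of their mean rank percentile were 24.2 and 25.5. Per chromosome the members ranged from 128 on chromosome 19 (2.08 per Mb of the chromosome) to 571 on chromosome 13 (4.74 per Mb).

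**Figure D1:**
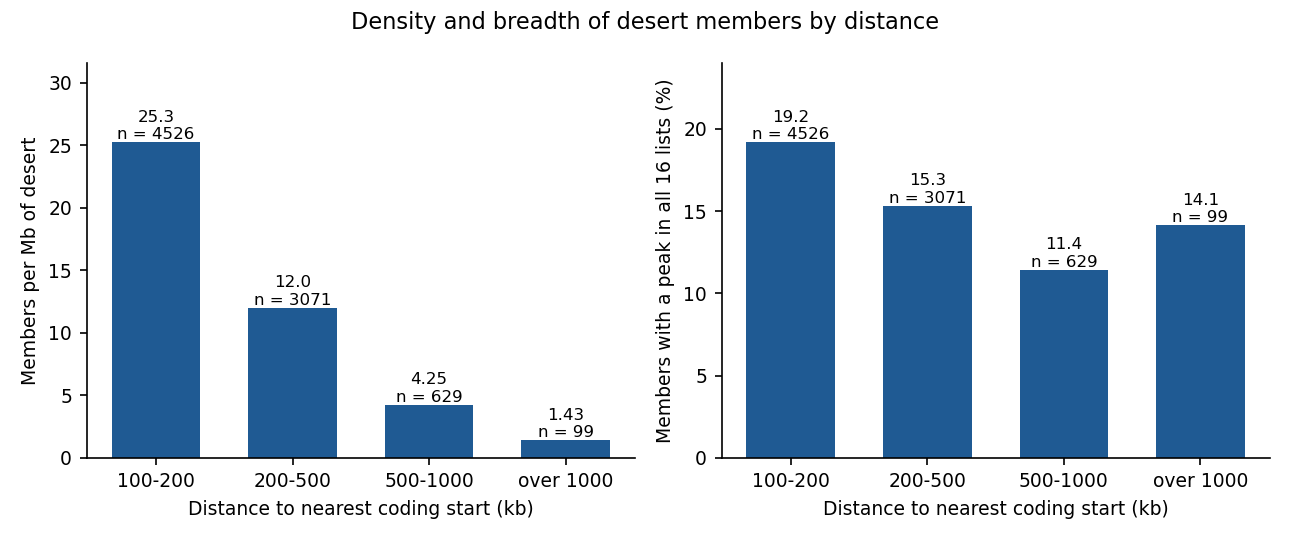
Members per Mb of desert (left) and percent of members with a peak in all 16 lists (right), by distance to the nearest protein-coding start in kb; n is the number of members in each class. Density falls at each step, from 25.3 to 1.43 per Mb, and the share in all 16 lists falls from 19.2% to 11.4% before the class of 99 members beyond 1000 kb.

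Many members stood together. With members chained while their midpoints were at most 25 kb apart, 402 clusters of at least 5 members held 3325 members (39.9%), and 1938 members (23.3%) stood alone. The largest cluster held 42 members in 274 kb of chromosome 14 between Serp2 and Lacc1, of which 12 had a peak in all 16 lists. A pair of clusters of 38 and 22 members on the same chromosome, between Olfr1507 and Dad1, lay in the T cell receptor alpha and delta locus, and all of their members were within 25 kb of an antigen receptor segment. Of the other large clusters, 34 members lay between Wwox and Maf, a transcription factor of macrophages and lymphocytes; 26 between Fam49a and Mycn, a relative of Myc; 25 between Gadd45g and Diras2; and 24 between Kit, the stem cell factor receptor, and Kdr, a receptor of endothelial growth factor. The other 3 of the 10 largest lay between Stt3b and Gadl1 (26), Ubl3 and Katnal1 (25), and Tle3 and Rplp1 (22).

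The Kit to Kdr cluster spans chr5:75736400-75878275 and lies 101 to 192 kb from the nearest coding start. WT libraries had 12, 15, 21 and 22 of its 24 members, P300KO libraries 17, 14, 24 and 20, TET2KO libraries 18, 16, 23 and 22, and P300KO_TET2KO libraries 19, 18, 24 and 24. Set 2 libraries were higher than set 1 libraries in every genotype, and the genotypes overlapped. Tet2 loss was tested over all 16 libraries, with labels permuted within p300 status and deposit set (exact permutation test, two-sided, 1296 arrangements). In this exact test the cluster had 2.38 more members with Tet2 loss (p = 0.00926), which did not pass after adjustment over the 10 clusters (adjusted p = 0.0926).

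The Stt3b to Gadl1 cluster spans chr9:115410439-115624645. Its 26 members were present 13, 17, 24 and 23 times in WT libraries, 13, 8, 24 and 22 times in P300KO, 15, 14, 25 and 25 times in TET2KO, and 14, 14, 23 and 23 times in P300KO_TET2KO. The same exact permutation test for p300 loss gave a difference of -1.88 members (p = 0.0370), which did not pass the adjustment (adjusted p = 0.370). None of the 10 clusters passed for either gene. In the 42-member cluster between Serp2 and Lacc1, WT libraries had 16, 25, 40 and 39 members and P300KO_TET2KO libraries 28, 29, 39 and 38, with the deposit sets apart and the genotypes overlapping.

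**Figure D2:**
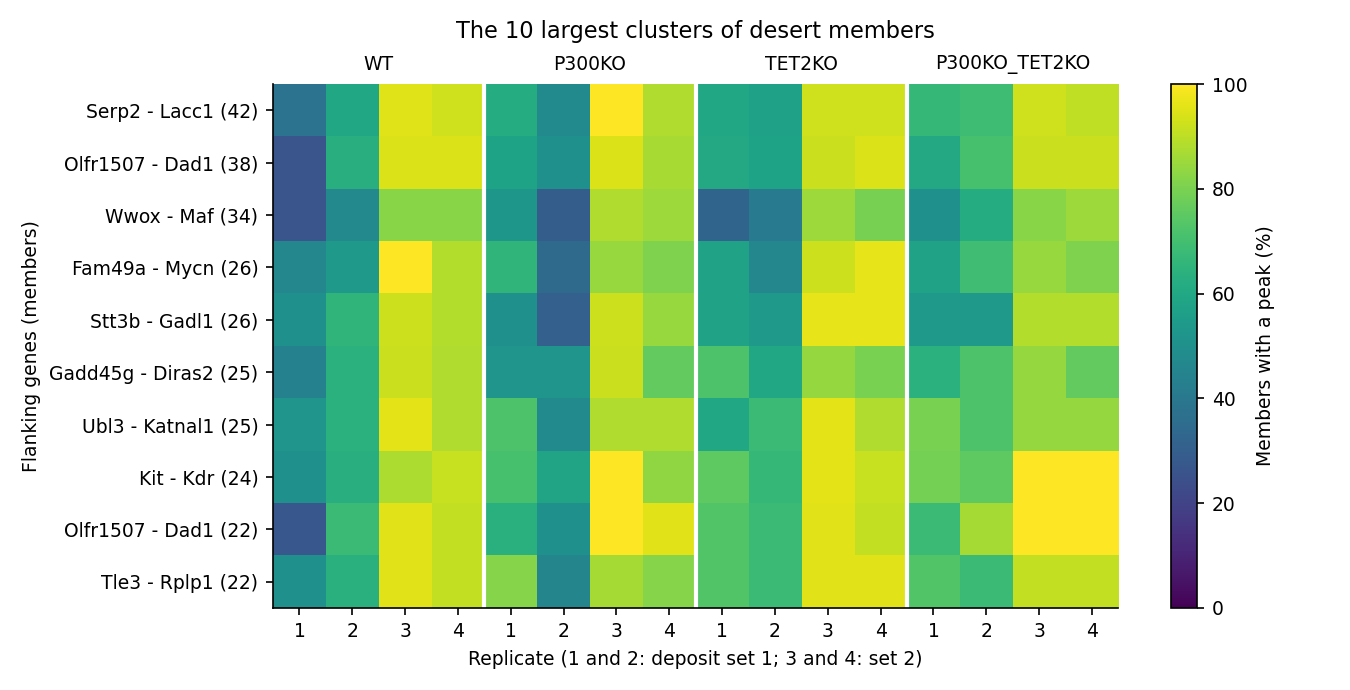
Percent of each cluster's members with a peak in each library, for the 10 clusters with the most members, labelled by flanking genes with the number of members in parentheses; columns are replicates within the 4 genotypes. Replicates 3 and 4 are brighter than replicates 1 and 2 in each genotype, with 10 of 38 members in WT replicate 1 and 36 in WT replicate 3 for the larger cluster between Olfr1507 and Dad1. The exception is P300KO between Tle3 and Rplp1, where replicates 1 and 4 both have 18 of 22 members.

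Receptor loci and a few large deserts led the nearest genes. Olfr1507, an olfactory receptor gene, was nearest to 72 members and Dad1, a subunit of oligosaccharyltransferase, to 54, and these genes flank the T cell receptor locus just described. Zfp386 with 34 and Ighv6-5 with 30 lie at the immunoglobulin heavy chain locus. The others of the first 10 were Adgrl2, an adhesion receptor, with 46; Maf with 42; Zfp608 with 42; Tbl1xr1, a corepressor subunit, with 37; Bcl11a, a zinc finger repressor of fetal globin that is needed for lymphocytes, with 34; and Cdh26, a cadherin, with 29. In the mean library of each genotype, WT had 17.5 of the Zfp386 members, P300KO 22.3, TET2KO 19.8 and P300KO_TET2KO 26.8, while for Cdh26 the numbers were 19.3, 17.5, 19 and 14.8. These means run over both deposit sets and were not tested. Mean presence of all members also differed, from 61.5% in WT to 70.3% in P300KO_TET2KO.

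A list of blood regulators and a list of developmental and neural genes were set beside all coding genes. Of 87 blood regulators, 39 (44.8%) were nearest to at least 1 member and together to 451 members, with a median of 8 where there was any. Of 70 developmental and neural genes, 37 (52.9%) were nearest to 181 members, with a median of 3. Of all 20733 protein-coding genes, 1693 (8.17%) were nearest to a member, with a median of 3. Genes in large deserts are nearest to more positions, and the size of each desert was not matched. Of the blood list members 19.7% had a peak in all 16 lists, of the developmental list 11.0%, and of all members 17.1%.

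After Maf and Bcl11a, the blood genes with the most members were Runx1 and Zeb2 with 28 each, Klf4 with 26, Id2 and Zfp36l1 with 25 each, Gata3 with 23, Kit with 20 and Cxcr4 with 19. Runx1 is a core factor of stem cells and its members lay 102 to 371 kb away, 6 of them in all 16 lists. Zeb2 is a repressor of stem and myeloid cells, Klf4 a monocyte factor, Id2 an inhibitor of E proteins, Zfp36l1 an RNA-binding protein, and Gata3 a factor of T and innate lymphoid cells. Cxcr4, the chemokine receptor that holds stem cells in marrow, had 7 of its 19 members in all 16 lists. On the developmental list Sall3 led with 28 members, followed by Tshz1 with 16, Sox9 with 12, Bmp2 and Tbx3 with 10 each, Sall1 with 9, Dach1 and Erbb4 with 8 each, and Gdf6 and Irx3 with 7 each. Myc was nearest to 10 members, 402 to 848 kb away, seen in 4 to 10 lists (median 8), and none of them reached all 16. Remote elements of Myc that lie nearer to another coding start are not in this count.

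Some members sat near noncoding genes. A long noncoding RNA started within 3 kb of 256 members (3.08%) and within 25 kb of 1665 (20%). Antigen receptor segments started within 25 kb of 238 members (2.86%), pseudogenes within 25 kb of 1242 (14.9%) and microRNAs within 25 kb of 229 (2.75%).

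The strongest members stood near the top of every list. Strength is given as the rank percentile of a peak within its own list by the −log10 p that MACS2 wrote, where 100 is the strongest peak and a region without a peak counts as 0. The 10 members with the highest mean had a peak in every library, at ranks of 95.7 to 100. Windows of 4 are shown, the strongest with no mitochondrial match, the strongest of all, and a pair with blood factor strings.
Epm2a region, chr10:11492108-11492208: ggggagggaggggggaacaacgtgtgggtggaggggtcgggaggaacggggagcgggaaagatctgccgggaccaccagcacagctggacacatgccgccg
G6pd2 region, chr5:60042931-60043031: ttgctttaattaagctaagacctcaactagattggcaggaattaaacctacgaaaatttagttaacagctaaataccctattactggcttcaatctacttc
Reep3 region, chr10:66864600-66864700: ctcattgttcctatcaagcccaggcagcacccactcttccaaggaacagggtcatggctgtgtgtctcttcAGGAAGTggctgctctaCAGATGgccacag
Ogfrl1 region, chr1:23256121-23256221: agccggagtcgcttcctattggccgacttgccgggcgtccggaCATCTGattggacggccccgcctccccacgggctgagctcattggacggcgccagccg

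The strongest was chr5:60042678-60043155, 1766 kb from G6pd2, with ranks of 97.9 to 100 and a deposited fold enrichment over background of 40.9 to 50.5. Of its 31-base words, 38.8% also occur in the mitochondrial genome, and the 51 bp at its summit occur 3 times in the nuclear and mitochondrial reference combined. The region at chr12:97061371-97061862, 1182 kb from Galc, ranked 95.8 to 100, shared 65.8% of its words with the mitochondrial genome and had 2 copies of its summit. Mitochondrial DNA carries no nucleosomes, and how many of the reads in these regions came from it was not tested. Only 4 members had any such word, and 2 of 31352 nearer regions had one.

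The region at chr10:11491993-11492329, 149 kb from Epm2a, had no mitochondrial word and a single copy of its summit. It ranked 97.7 to 100, and its fold was 37.5 to 50.1. The others of the 10 lay 122 kb from Arhgap12 (98.4 to 99.7), 154 kb from Hpcal1 (97.1 to 99.0), 154 kb from Smim15 (96.8 to 99.5), 170 kb from Reep3 (95.8 to 98.85), 127 kb from Ogfrl1 (96.0 to 98.3), 105 kb from Zfat (95.8 to 98.8) and 204 kb from Uaca (95.7 to 98.1). GC content within 100 bp of the summit was 62.7% to 71.1% in 6 of these 10, against a mean of 47.9% over all members. The Reep3 region held Spi1, Ap1 and Tal1 strings, and no member of the 10 held a Gata, Cebp or Ctcf string.

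Blood factor strings were more frequent at desert summits than at nearer ones, though Ap1 and Tal1 were not so at every number of lists. The Ctcf string was less frequent, though not among regions seen in few lists. In each library, the share of its members with a string within 100 bp of that library's summit was set against the share in nearer regions. The Spi1 string was in 24.2% ± 1.69 of members (mean ± SD, n = 16 libraries) and in 20.8% ± 1.57 of nearer regions. The Gata string was in 12.7% ± 0.680 against 9.93% ± 0.446, Runx in 13.8% ± 0.403 against 11.48% ± 0.336, and Cebp in 11.1% ± 0.530 against 9.88% ± 0.405. The differences were smaller for Tal1, with 18.7% ± 0.475 against 17.8% ± 0.330, and for Ap1, with 9.78% ± 0.395 against 9.36% ± 0.369. Ctcf stood at 6.55% ± 0.735 against 8.71% ± 0.981. Each of the 6 blood strings was higher and Ctcf was lower in 16 of 16 libraries (exact permutation test of signs, two-sided, adjusted p = 3.05e-05 for each of 7 strings, which is the smallest possible). With the strongest 50000 peaks the directions and calls were kept, but Runx moved to 4.15 percentage points from 2.28, Tal1 to 1.84 from 0.902, Ap1 to 1.29 from 0.422 and Ctcf to -3.74 from -2.16, with Cebp at 1.21, so the order of the strings changed. The libraries share most of their regions, so these tests speak of the libraries and not of the regions. For regions over 200 kb from a start the Ap1 difference turned, with a desert minus nearer difference of -0.203 percentage points (exact permutation, adjusted p = 0.112).

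At region level, with the summit of the highest ranking library, the Spi1 string was in 25.4% of members, 21.6% of nearer regions and 20.5% of all 125367 regions. The Gata string was in 12.3%, 9.98% and 9.17%, and Runx in 13.5%, 11.51% and 10.9%. Ctcf was in 5.53%, 7.09% and 5.18%, so members lay below nearer regions but not below all regions. At least 1 of the 6 blood strings was in 63.2% of members and 57.9% of nearer regions. GC content was lower in members (47.9% against 49.9%), and so was the share of repeat-masked bases (13.3% against 15.6%); the part of base composition in the string shares was not tested. Members seen in all 16 lists held the Runx string in 17.3% and Ctcf in 6.87%, and members seen in 4 to 7 lists in 12.7% and 2.72%. The lower Ctcf share depended on the number of lists. Nearer regions held Ctcf in 11.6% (all 16 lists) and 9.49% (12 to 15 lists), against 6.87% and 8.91% of members. In 8 to 11 and 4 to 7 lists they held it in 3.75% and 1.80%, against 4.42% and 2.72% of members. Ap1 was in 8.29% of members and 9.34% of nearer regions seen in 4 to 7 lists. Tal1 was in 18.2% of members and 18.8% of nearer regions seen in 8 to 11 lists. At the other numbers of lists both strings were more frequent in members. The 629 members between 500 and 1000 kb held the Runx string in 17.01%, Tal1 in 23.4% and Gata in 14.9%, where the 4526 members nearer than 200 kb held them in 12.7%, 18.1% and 12.4%. The 3071 members between 200 and 500 kb held them in 14.1%, 18.8% and 11.7%. The 99 members beyond 1000 kb held them in 9.09%, 15.2% and 15.15%, so none of these strings rose at every step. GC content was 48.5% in the members nearer than 200 kb, 45.1% between 500 and 1000 kb and 43.7% beyond.

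Presence of members followed the deposit sets more than the genotypes. WT libraries had 28.3%, 43.7%, 87.8% and 86.3% of the members, P300KO 49.6%, 34.0%, 87.3% and 83.4%, TET2KO 45.3%, 45.7%, 86.0% and 87.8%, and P300KO_TET2KO 52.4%, 55.6%, 86.8% and 86.4%, in replicate order. Every set 2 library lay above every set 1 library, and the genotypes overlapped. Set 2 had 86.5% ± 1.42 and set 1 44.3% ± 9.14 (n = 8 each), a difference of 42.1 percentage points (exact permutation within genotype, two-sided, p = 0.00154, the smallest possible). With the strongest 50000 peaks of each list the set difference was 3.36 points, at the same p. All 8 set 2 libraries shared 5114 members (61.4%), all 8 set 1 libraries 1435 (17.2%), and 301 members were in all of set 2 and none of set 1, with 0 the other way.

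By genotype, WT averaged 61.5% ± 30.1, P300KO 63.6% ± 25.95, TET2KO 66.2% ± 23.9 and P300KO_TET2KO 70.3% ± 18.9 (mean ± SD, n = 4 each). The 4 contrasts had adjusted p = 0.8 each (exact permutation, two-sided, 70 regroupings, smallest possible p = 0.0286). Over all 16 libraries, within set and other genotype, presence was 5.71 percentage points higher with Tet2 loss (exact permutation, p = 0.0293), which did not pass over the 2 effects (adjusted p = 0.0586). The difference was 10.8 points in set 1 and 0.580 in set 2. In the same exact test it passed without WT replicate 2 (7.63 points, adjusted p = 0.0432), without WT replicate 3 (5.89, 0.0309), without P300KO replicate 3 (6.197, 0.0185) and without TET2KO replicate 3 (5.93, 0.0278). It did not pass with any of the other 12 libraries left out (3.77 to 7.65 points, exact permutation, adjusted p = 0.0586 to 0.333). With the strongest 50000 peaks of each list, which sets all lists to 1 length, the difference was 0.532 points (exact permutation, adjusted p = 0.560). For p300 loss the difference was 3.06 points (exact permutation, adjusted p = 0.290), 7.15 in set 1 and -1.04 in set 2.

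**Figure D3:**
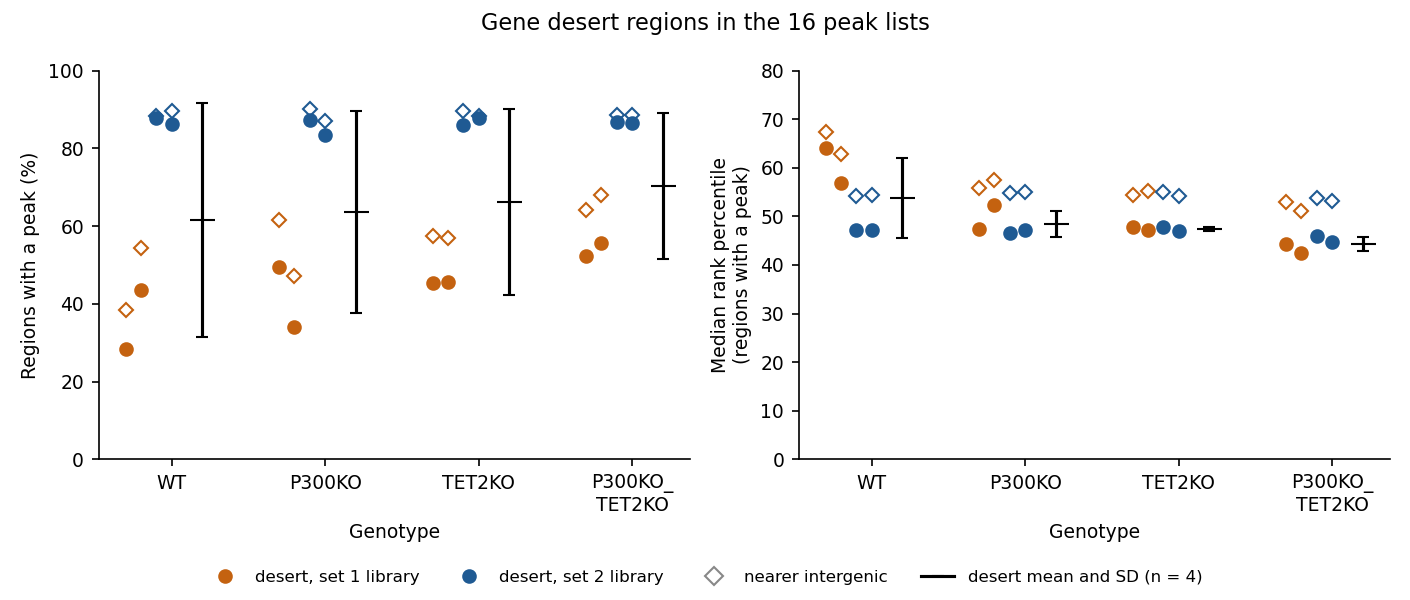
Percent of members with a peak (left) and median rank percentile of the members present (right) in each of the 16 libraries; filled circles are desert members, coloured by deposit set, open diamonds are nearer regions in the same library, and black bars are the desert mean ± SD per genotype (n = 4). Set 2 libraries lie between 83.4% and 87.8%, above all set 1 libraries, and desert circles lie below the diamonds of the same library in both panels.

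The members that a library had ranked lowest in the P300KO_TET2KO libraries, but this did not hold over the 1426 members present in all lists. The median rank percentile was 64.1, 56.8, 47.3 and 47.1 in the WT libraries, 47.4, 52.3, 46.65 and 47.1 in those of P300KO, 47.8, 47.1, 47.7 and 46.9 in those of TET2KO, and 44.4, 42.5, 45.9 and 44.6 in the double knockout. All 4 of the last lay below all 12 others, while the other genotypes overlapped. This order was not particular to deserts. Nearer regions had medians of 51.1 to 53.7 in the double knockout and at least 54.2 in the others. Over all regions the medians were 54.0 to 55.8 and at least 56.1. For members, the difference against TET2KO was -3.05 and against P300KO -4.03 (exact permutation, p = 0.0286 for each, the smallest possible, adjusted p = 0.0571), so neither passed. With only peaks of −log10 q of at least 2 they were -1.23 and -0.457 (exact permutation, adjusted p = 0.629 for each). The strongest 50000 peaks gave -0.885 and -0.469 (exact permutation, adjusted p = 0.419 and 0.543). Members in at least 8 lists gave -3.30 and -3.99 (exact permutation, adjusted p = 0.343 and 0.267). Over the 1426 members in all 16 lists these differences were -0.297 and 0.530 (exact permutation, adjusted p = 0.971 for each), and the lowest median was that of P300KO replicate 2 at 66.4.

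Over all 16 libraries the median rank was lower with p300 loss (a difference of -4.26, exact permutation, adjusted p = 0.00309) and with Tet2 loss (-5.24, adjusted p = 0.00617). With only peaks of −log10 q of at least 2 these differences were -1.42 (exact permutation, adjusted p = 0.00926) and -0.641 (0.0694), and with the strongest 50000 peaks -2.32 (0.00309) and -1.91 (0.0679). The p300 difference was -7.31 in set 1 and -1.20 in set 2, and the Tet2 difference -9.72 and -0.752. These medians run over different members in each library, and WT replicate 1, the library with the fewest members, had the highest. Over the 1426 members in all 16 lists, where every library counts the same regions, the exact test gave -1.55 for p300 loss (adjusted p = 0.105) and -0.726 for Tet2 loss (adjusted p = 0.472), and neither passed.

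Nearer regions ranked lower too, with differences of -2.93 for p300 loss (exact permutation, adjusted p = 0.0185) and -4.01 for Tet2 loss (adjusted p = 0.0154). In every library the desert median lay below the nearer median, with a mean difference of -7.20 percentile points (exact permutation of signs, p = 3.05e-05, the smallest possible). That gap was wider with p300 loss (a change of -1.32, exact permutation, adjusted p = 0.0108), with -1.70 in set 1 and -0.944 in set 2. Over regions in all 16 lists the change was -1.21 (exact permutation, adjusted p = 0.00309), with -1.47 in set 1 and -0.958 in set 2. Without WT replicate 1 the change of the gap was -0.995 (exact permutation, adjusted p = 0.1003), without P300KO replicate 1 -0.907 (0.0741) and without P300KO_TET2KO replicate 2 -1.31 (0.0556). With Tet2 loss the gap changed by -1.23 (exact permutation, adjusted p = 0.0108), but by -0.274 over regions in all 16 lists (adjusted p = 0.423). It lost its call without WT replicate 1 (-0.902), TET2KO replicate 2 (-1.03) and P300KO_TET2KO replicates 1 (-1.24) and 2 (-1.21). The comparison of gaps was added after the data were seen.

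Few members separated the genotypes outright. In P300KO_TET2KO against TET2KO, 11 members had a peak in 4 of 4 and 0 of 4 libraries (0.132%), where 0.136% of all regions with a peak in at least 4 lists did so, and 0 members were lost (0.0303% of all regions). In P300KO against WT, 1 was gained (0.0311% of all regions) and 4 were lost (0.0247%). In TET2KO against WT, 3 were gained (0.0319%) and 1 was lost (0.0168%). In P300KO_TET2KO against P300KO, 13 were gained (0.152%) and 5 lost (0.0726%). Member shares were near the background where the counts were not below 5, and the contrasts share libraries. The direction of these counts was not stable. With the strongest 50000 peaks, P300KO_TET2KO against TET2KO had 7 gained and 10 lost, and without TET2KO replicate 1 it had 14 and 15. In P300KO against WT the counts were 1 gained and 40 lost without WT replicate 1, and 16 and 4 without P300KO replicate 2. In TET2KO against WT they were 3 and 24 without WT replicate 1, and in P300KO_TET2KO against P300KO 15 and 31 without P300KO replicate 2. Fewer libraries have to separate when 1 is left out. Shares over all regions are not given for these settings, so whether the swings are particular to the members was not tested.

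Of the gains in P300KO_TET2KO against TET2KO, the highest ranked lay 405 kb from Rprm at chr2:53680676-53680988, in the window with 2 Gata strings shown above. Its ranks were 50.4, 34.2, 43.8 and 42.2 in P300KO_TET2KO, 33.4, 4.16, 42.6 and 37.3 in P300KO, 13.6 in WT replicate 3 and 0 in the other WT and in all TET2KO libraries. The double knockout libraries did not overlap with TET2KO or WT, and the P300KO libraries overlapped with WT. The regions 289 kb from Tmtc4, 106 kb from Dnajb6, 599 kb from Arid1b and 131 kb from Nuak1 were the other leading gains in that contrast. The Dnajb6 region ranked 28.9, 20.2, 25.8 and 17.6 in P300KO_TET2KO and had peaks in P300KO replicates 3 and 4 only besides. The Arid1b region ranked 1.34, 12.9, 29.8 and 34.4 in P300KO_TET2KO and was also in 3 P300KO and 2 WT libraries.

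The region at chr4:124079627-124079976, 162 kb from 4930535I16Rik, was present in the 8 Tet2-null libraries only. It ranked 51.2, 44.9, 63.9 and 61.5 in TET2KO and 47.6, 28.9, 43.8 and 50.1 in P300KO_TET2KO, and no WT or P300KO library had a peak. On the same chromosome, chr4:124102761-124103168, 185 kb from the same gene, ran the other way, with ranks of 39.8, 45.9, 54.7 and 43.4 in P300KO, 61.4 and 58.0 in WT replicates 3 and 4, 40.3 in TET2KO replicate 4 and no peak in P300KO_TET2KO. The Fut8 region ranked 15.6, 16.7, 15.2 and 38.1 in TET2KO, was absent from WT, and had peaks in 3 P300KO libraries at 8.82 to 15.4 and in 3 P300KO_TET2KO libraries at no more than 3.30.

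The single member gained in P300KO against WT lay 127 kb from Ap3b1, with ranks of 14.05, 32.3, 8.39 and 18.6 in P300KO and up to 18.7 in TET2KO. The third member gained in TET2KO against WT lay 152 kb from Tomm20 and ranked 10.6, 32.3, 18.9 and 1.15 in TET2KO.

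The 4 losses in P300KO against WT included chr13:11536881-11537616, 109 kb from Ryr2, a calcium channel gene of the heart. It ranked 58.7, 45.4, 32.0 and 43.5 in WT and had no peak in P300KO, 1 of rank 19.02 in TET2KO and 1 of rank 3.53 in P300KO_TET2KO. The region 261 kb from Zwint, at chr10:72393373-72394236, was seen in WT alone, but with ranks of 64.1, 2.99, 48.0 and 1.31, and was also the member lost in TET2KO against WT. It met the rule of 4 lists only through WT, the genotype in which it is high, so neither loss is independent of that rule. The other 2 lay 254 kb from 4930544G11Rik (10.52 to 59.5 in WT) and 127 kb from Ddx1 (1.85 to 45.35 in WT), and had peaks in 8 and 7 of the Tet2-null libraries. Among the 5 members lost in P300KO_TET2KO against P300KO, chr13:52079501-52080051, 233 kb from Gadd45g, ranked 12.7, 40.3, 37.45 and 32.5 in P300KO, and chr1:106428141-106428904, 257 kb from Phlpp1 in the desert between it and the survival gene Bcl2, ranked 28.7, 18.0, 45.6 and 43.8. Both were also seen in WT and in some TET2KO libraries. The rest, besides the chromosome 4 region above, lay 108 kb from Rbm19 and 233 kb from Ttc8, with P300KO ranks of 17.7 to 50.1 and 7.63 to 23.04. Any gained or lost member meets the rule of 4 lists through the genotype in which it is high. Without that genotype the Ryr2, Tmtc4, Dnajb6, Tomm20 and Gadd45g regions would fall below 4 lists, as the Zwint region does. The same holds for chr4:124102761-124103168, so these gains and losses are not independent of the rule.

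**Figure D4:**
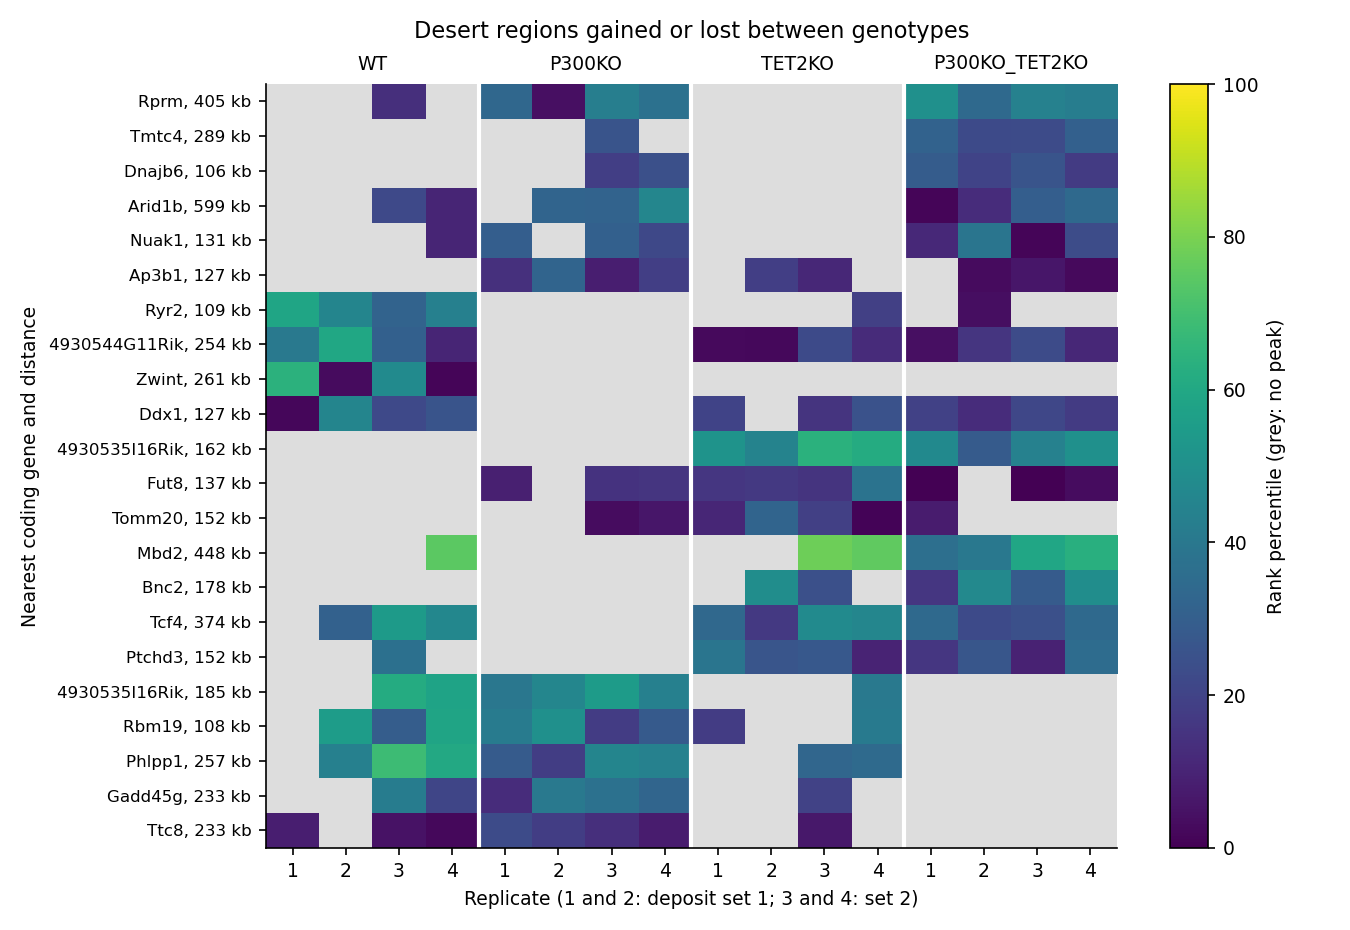
Rank percentile in each library of the members gained or lost between genotypes, up to 5 per contrast and direction, labelled by nearest protein-coding gene and distance in kb; grey means no peak. The first of the 4930535I16Rik rows is coloured in the 8 Tet2-null libraries only, and the Zwint row in WT only. The Zwint region met the rule of 4 lists through WT alone. Without the genotype in which they are high, other rows would also fall below 4 lists. These are the Tmtc4, Dnajb6, Ryr2, Tomm20, Mbd2, Bnc2 and Gadd45g rows and the second of the 4930535I16Rik rows.

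A looser rule asked that all 4 ranks of one genotype lie above all 4 of the other. In P300KO_TET2KO against TET2KO, 68 members were higher, against 1.21% of all regions, and 35 lower (0.564%). These were 0.817% and 0.420% of the members. In P300KO against WT, 20 were higher (0.546% of all regions) and 69 lower (0.877%). In TET2KO against WT, 22 were higher (0.306%) and 53 lower (0.637%). In P300KO_TET2KO against P300KO, 61 were higher (1.06%) and 57 lower (0.82%). The member shares in the last 3 contrasts were 0.240% and 0.8288%, 0.264% and 0.637%, and 0.733% and 0.685%. None of the 8 shares exceeded that of all regions at this precision. The balance of higher and lower members turned in every contrast when single libraries were left out. In P300KO_TET2KO against TET2KO it was 86 higher and 204 lower without TET2KO replicate 1, 76 and 144 without TET2KO replicate 2, 71 and 81 without P300KO_TET2KO replicate 3, and 49 and 76 with the strongest 50000 peaks. In P300KO against WT it was 148 higher and 74 lower without P300KO replicate 2, and 23 and 342 without WT replicate 1. With only peaks of −log10 q of at least 2 it was 7 higher and 3 lower, and the same counts were found in TET2KO against WT. In TET2KO against WT it was 84 and 62 without TET2KO replicate 1, and 93 and 57 without TET2KO replicate 2. In P300KO_TET2KO against P300KO it was 70 and 246 without P300KO replicate 2, 81 and 122 without P300KO replicate 1, and 65 and 90 or 70 and 95 without P300KO_TET2KO replicate 3 or 4. Shares over all regions are not given for these settings either.

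The Gata string was counted in the members that ranked higher or lower. It was in 42 of the 68 members higher in P300KO_TET2KO against TET2KO (61.8%) and in 5 of the 35 lower ones (14.3%), where 12.3% of all members hold it. In P300KO against WT it was in 8 of 20 higher members (40.0%) and 11 of 69 lower ones (15.9%). The 1523 regions of any class that were higher in P300KO_TET2KO against TET2KO held it in 30.5%, and the 707 lower ones in 5.09%. In P300KO against WT the 684 higher regions held it in 24.9% and the 1099 lower ones in 7.37%. Of the contrasts of Tet2 loss, TET2KO against WT had it in 3 of 22 higher members (13.6%) and 11 of 53 lower ones (20.8%). The 383 higher and 798 lower regions of any class held it in 10.4% and 11.0%. P300KO_TET2KO against P300KO had it in 16 of 61 higher members (26.2%) and 10 of 57 lower ones (17.5%). There the 1331 higher and 1028 lower regions of any class held it in 12.4% and 10.4%. A Gata pattern in these libraries was known when the strings were chosen, and the counts were set side by side without a test.

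Over all 1028 members with the Gata string, the shift was small. Their mean rank percentile minus that of the 7297 members without it was -0.191, 2.17, -3.01 and -4.16 in WT, 2.06, 1.47, -1.58 and -1.11 in P300KO, 0.697, -1.04, -4.86 and -4.58 in TET2KO, and 1.95, 1.40, 1.32 and 1.06 in P300KO_TET2KO, with a library without a peak counted as 0. In set 2 all p300-null libraries lay above all others. With p300 loss the gap was 2.69 percentile points higher (exact permutation within set and Tet2 status, two-sided, p = 0.00463), with 0.774 and 2.24 in the Tet2-present libraries of sets 1 and 2 and 1.85 and 5.91 in the Tet2-null libraries. In this exact test it did not pass after adjustment over 14 string and gene combinations (adjusted p = 0.0648), of which none passed. It passed without WT replicate 2 (2.99, exact permutation, adjusted p = 0.0216) and without P300KO_TET2KO replicate 3 (2.66, 0.0432). The nearer regions gave 2.35 (exact permutation, adjusted p = 0.0108), and the desert and nearer values differed by 0.343 (p = 0.321, adjusted p = 0.562). With p300 loss the Ctcf gap was 2.98 higher (exact permutation, adjusted p = 0.0864, and 3.196 with 0.0432 without P300KO_TET2KO replicate 3) and the Cebp gap 1.57 higher (adjusted p = 0.151). These gaps were computed after the data were seen.

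**Figure D5:**
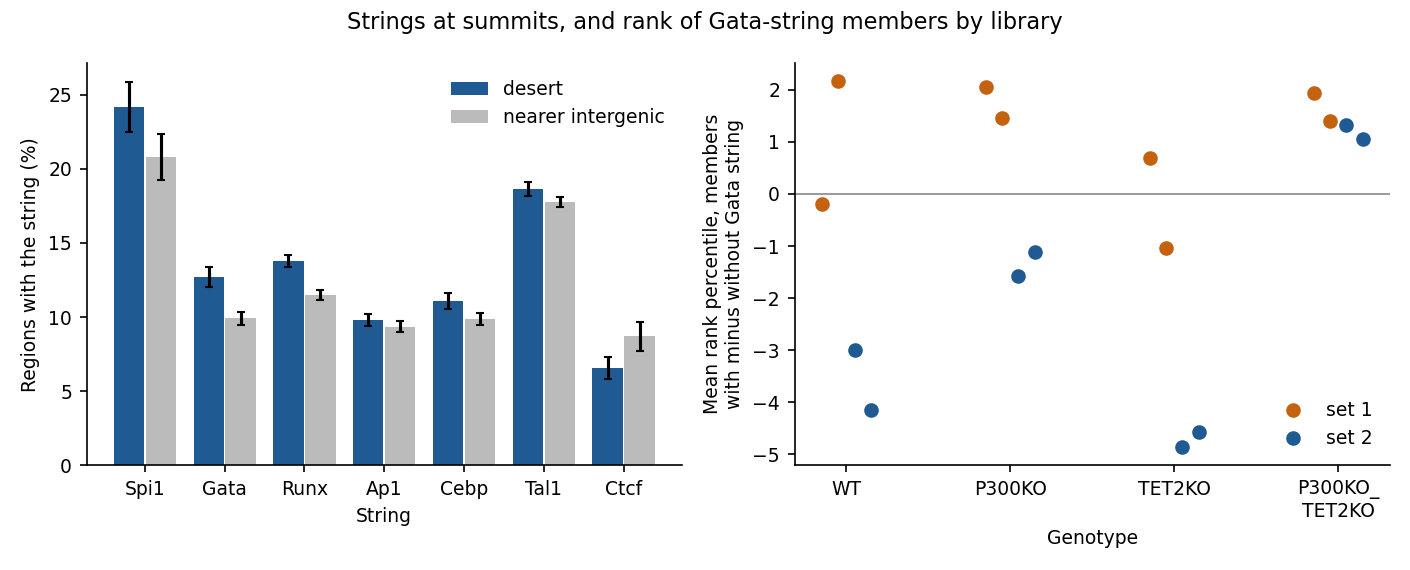
Left, percent of regions with each string within 100 bp of the summit in gene deserts and nearer regions, mean ± SD over 16 libraries. Right, mean rank percentile of members with the Gata string minus members without it, 1 point per library, coloured by deposit set; the 4 P300KO_TET2KO libraries lie between 1.06 and 1.95, and TET2KO replicates 3 and 4 at -4.86 and -4.58.

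Of single members with large shifts, picked after their values were seen, chr9:115617499-115618642 in the Stt3b to Gadl1 cluster ranked 83.0, 49.9, 80.1 and 76.7 in WT, 25.8, 0, 39.8 and 31.7 in P300KO, 24.0, 11.0, 44.8 and 43.3 in TET2KO, and 0, 0, 3.22 and 9.13 in P300KO_TET2KO. WT lay above every other genotype, and P300KO_TET2KO lay lowest but for P300KO replicate 2. The region at chr1:128874082-128874822, 282 kb from Cxcr4, ranked 84.4, 63.0, 67.7 and 41.0 in WT, 0 to 45.6 in P300KO, 18.6 to 22.6 in TET2KO and 0 to 7.99 in P300KO_TET2KO. Near Fmo9, 138 kb away, chr1:166819194-166820043 ranked 58.7 to 72.5 in WT, 39.6 to 61.5 in TET2KO, 0 to 35.6 in P300KO and 0 to 17.6 in P300KO_TET2KO. In the other direction, chr4:69077099-69077888, 123 kb from Brinp1 and with a Gata string, ranked 0 to 52.1 in WT and 55.7 to 68.2 in P300KO, and 51.2 to 62.8 in TET2KO and 63.5 to 80.1 in P300KO_TET2KO. It was higher in both contrasts of p300 loss without overlap.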

How the data were processed

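Peak lists of 16 ATAC-seq libraries, 4 per genotype, were used. The authors trimmed reads with cutadapt 1.9.1, aligned them to mm10 with Bowtie2 2.2.6 and called peaks in each library with MACS2 2.1.0. The deposited values are a fold enrichment (ratio), a −log10 p and a −log10 q per peak, and column 8, the −log10 p, was ranked within each list because the lists differ in length. Read depth is not held in the lists, so no counting interval was given. The genotypes, pooled mice and deposit sets were read from the labels.

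Peaks on chromosomes 1 to 19 were merged at 1 bp overlap and placed on GENCODE gene models of the same build. Groups were compared over libraries with two-sided exact permutation tests and Benjamini-Hochberg adjustment, run in Python 3.11.15 (numpy 2.4.6, scipy 1.17.1). The scripts were tested on simulated data. A marker gene and a sequence are not reported here. The members, lists and strings were chosen with earlier results of these data known. Named were the 10 largest clusters, nearest genes and strongest members, up to 5 gained and 5 lost members per contrast, and the leading genes of 2 lists; other members named are said to be chosen after their values were seen. Libraries with the same replicate number correlated (r = 0.119 to 0.355 in 16 of 16 cases). The correlation was -0.103 to 0.00880 once the deposit sets were removed, and the own number was the best match in 4 of 16 cases. By a rule of r over 0.1 the numbers were used as a replicate block in an alternative test. The main contrasts did not pair them. Each library was a separate pool of mice. Alternatives were stricter peaks, 50% cover, 8 lists, 200 kb, other ranks and single libraries left out.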

Additional observations from a re-analysis of the deposited data

Results flagged for a closer look

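Of 84 groups of 4 libraries checked for a library far from the other 3, 5 had one, and chance gives about 1 in 20. The median rank of the members in P300KO replicate 2 was 52.3, where the other P300KO libraries lay at 46.65 to 47.4. The same library had a peak in 10 members of the cluster between Tle3 and Rplp1, where the others had 18 to 19. Among the strongest members, the region near G6pd2 ranked 99.7 in WT replicate 3 and 99.96 to 100 in the other WT libraries. The region near Reep3 ranked 96.2 in WT replicate 1 and 98.35 to 98.71 in the others, and the region near Uaca ranked 95.7 in TET2KO replicate 2 and 97.44 to 97.8 in the others. No cause was tested.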

How the results depend on the processing

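Of the alternatives, 568 values kept their direction and call, 92 moved, 22 reversed, 15 lost and 13 gained a call. The main rank difference of set 2 against set 1 was -3.65 (exact permutation within genotype, p = 0.123). With only peaks of −log10 q of at least 2, the Tet2 difference in presence was 7.61 (exact permutation, adjusted p = 0.0494) and in rank -0.641 (0.0694), the rank difference of set 2 against set 1 was 4.09, gained and lost members were 1 in P300KO v WT and 1 in TET2KO v WT, and rank-separated members 10, 10 and, in P300KO_TET2KO v P300KO, 70. With the strongest 50000 peaks, presence differed by -1.26 (P300KO_TET2KO v TET2KO), -0.0210 (P300KO v WT), -0.0901 (P300KO_TET2KO v P300KO) and -0.643 (p300 loss), the Tet2 rank difference was -1.91 (exact permutation, adjusted p = 0.0679), and gained and lost members were 17, 12 and, in TET2KO v WT, 1. With 50% of a region covered, the Tet2 presence difference was 6.56 (exact permutation, adjusted p = 0.0463), the set difference in rank -9.73, gained and lost members 18 in P300KO_TET2KO v TET2KO and 0 in P300KO v WT, and rank-separated members 33 in P300KO v WT and 30 in TET2KO v WT. With at least 8 lists, the set difference in rank was 2.65 and gained and lost members were 6, 3 and 2 in P300KO_TET2KO v TET2KO, P300KO v WT and TET2KO v WT. Over 200 kb, the Tet2 presence difference was 6.47 (exact permutation, adjusted p = 0.0247), the Ap1 difference -0.203, and the 4 contrasts, ending with P300KO_TET2KO v P300KO, had 7, 2, 1 and 9 gained or lost and 44, 42, 33 and 55 rank-separated members, from fewer regions. In percent of the list, the Tet2 presence difference was 0.554 (exact permutation, adjusted p = 0.0370). In regions of all 16 lists, rank differences were 0.530 (P300KO_TET2KO v P300KO), -1.55 (p300 loss), -0.726 (Tet2 loss) and 9.50 (set, exact permutation within genotype, p = 0.00154). Which of these changes have a common cause was not tested.

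Leaving out 1 library moved presence between -9.02 and 11.9 (P300KO v WT), -6.37 and 13.5 (TET2KO v WT), -3.12 and 14.6 (P300KO_TET2KO v P300KO), -2.91 and 11.3 (P300KO_TET2KO v TET2KO) and 3.77 and 7.65 (Tet2 loss). In the same order of contrasts, gained and lost members ran from 7 to 41 (most without WT replicate 1), 7 to 27, 19 to 46 and 13 to 37, and rank-separated members from 130 to 365, 124 to 262, 155 to 316 and 152 to 290; fewer libraries make both rules easier to meet. The rank differences for p300 loss (-5.17 to -3.34) and Tet2 loss (-6.15 to -4.33) kept their calls. With the replicate block, presence differed by 4.07, 2.05, 4.70 and 6.72 and rank by -3.05, -5.46, -6.44 and -4.03 over the 4 contrasts. Its smallest possible p is 0.125, and it changed no call.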
